A study of Homo sapiens with 4 samples.

Results

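Antisense transcripts with a clear signal were examined in KYSE410, an established human cell line of esophageal squamous carcinoma origin. Cells received no treatment or 20 nM of YM155, a compound known for lowering survivin expression, during 6 h. The members were the genes whose symbol ends in -AS, with or without a number, and whose probe set of highest mean reached a linear intensity of at least 30 over the 4 arrays. They were 144 of 791 antisense genes with a probe set of their own, and of 19775 genes in all. The groups held 2 untreated and 2 YM155 arrays, and nothing in the labels says that they came from separate cultures, so the p-values measure only how far these arrays scatter, and that scatter may be technical. Codes in the sample titles (B1, B2) are not explained. One protocol field of the labels mentions cisplatin, while the treatment labels and the title of the series give YM155, and the latter was taken. The rule used the level and not the difference between the groups, but the 2 are not independent: 15 members reached 30 only through their untreated arrays and 3 only through their YM155 arrays. Counts over the members are therefore descriptions.

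Antisense transcripts are made from the strand opposite to another gene, here called the sense gene, and many start near the promoter of that gene and run away from it or across it. Most are noncoding, and many are kept at low levels because the nuclear RNA exosome degrades them soon after they are made. Some act on the sense gene or its chromatin, others work elsewhere in the cell, and most have no known role. On these arrays the labelling starts from the poly(A) tail, so a signal reports a polyadenylated transcript. Which strand each probe set reads was taken from the platform annotation, since probe sequences were not used here.

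The promoters of the members with the largest differences are shown first, to set out what kind of start site each has. They are 4 of the 5 members whose YM155 mean lay at least 1 log2 below each untreated array and, last, the 1 member that stood at least 1 log2 higher. The fifth of the lower ones is ATXN1-AS1, which is named only. Each sequence holds 250 bases before and 50 after the start site, from RefSeq on GRCh38.p14, read 5′ to 3′ on the transcript's own strand. Capitals mark matches on either strand. The CCAAT box was searched as those 5 letters and the TATA box as TATAAA. The letters searched for a GC box were GGGCGG, and those for the core site of ETS factors were CCGGAAG. The windows are chr22:27919126-27919425 (plus strand) for TTC28-AS1, chr2:121649404-121649703 (plus) for NIFK-AS1, chr1:155561792-155562091 (plus) for ASH1L-AS1, chr10:31319046-31319345 (minus) for ZEB1-AS1 and chr19:48255425-48255724 (plus) for CARD8-AS1.
TTC28-AS1: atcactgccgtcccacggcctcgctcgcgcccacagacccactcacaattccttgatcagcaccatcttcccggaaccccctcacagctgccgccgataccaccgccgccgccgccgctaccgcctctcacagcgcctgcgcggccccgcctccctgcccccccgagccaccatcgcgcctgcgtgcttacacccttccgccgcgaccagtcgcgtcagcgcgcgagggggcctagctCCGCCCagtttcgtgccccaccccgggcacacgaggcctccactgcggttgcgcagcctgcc
NIFK-AS1: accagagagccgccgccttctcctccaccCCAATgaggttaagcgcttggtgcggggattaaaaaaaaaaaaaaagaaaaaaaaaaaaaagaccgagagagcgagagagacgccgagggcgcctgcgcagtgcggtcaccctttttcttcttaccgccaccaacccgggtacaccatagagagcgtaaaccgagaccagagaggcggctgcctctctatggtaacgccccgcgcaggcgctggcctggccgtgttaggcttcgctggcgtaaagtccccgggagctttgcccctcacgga
ASH1L-AS1: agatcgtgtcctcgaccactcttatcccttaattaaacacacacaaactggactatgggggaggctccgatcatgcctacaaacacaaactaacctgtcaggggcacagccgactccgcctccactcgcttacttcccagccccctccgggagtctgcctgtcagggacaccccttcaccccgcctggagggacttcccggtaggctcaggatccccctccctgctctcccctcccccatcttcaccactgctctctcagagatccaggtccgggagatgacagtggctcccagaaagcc
ZEB1-AS1: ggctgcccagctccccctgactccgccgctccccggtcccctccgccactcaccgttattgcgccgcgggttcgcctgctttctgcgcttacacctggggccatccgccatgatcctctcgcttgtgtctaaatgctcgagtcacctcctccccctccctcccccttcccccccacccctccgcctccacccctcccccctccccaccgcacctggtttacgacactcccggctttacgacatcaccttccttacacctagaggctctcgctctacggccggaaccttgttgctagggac
CARD8-AS1: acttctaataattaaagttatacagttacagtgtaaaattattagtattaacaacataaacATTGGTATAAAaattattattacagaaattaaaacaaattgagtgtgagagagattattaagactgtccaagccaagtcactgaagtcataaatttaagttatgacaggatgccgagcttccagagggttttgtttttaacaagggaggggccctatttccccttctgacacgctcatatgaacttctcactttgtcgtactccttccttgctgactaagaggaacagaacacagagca
The G and C content was 72% in TTC28-AS1, 65.7% in ZEB1-AS1, 59.3% in ASH1L-AS1, 57.7% in NIFK-AS1 and 35% in CARD8-AS1. The CG dinucleotides numbered 36 in TTC28-AS1, 25 in NIFK-AS1, 21 in ZEB1-AS1, 10 in ASH1L-AS1 and 3 in CARD8-AS1. TTC28-AS1 held 1 GC box, NIFK-AS1 held 1 CCAAT box, and CARD8-AS1 held 1 CCAAT box and 1 TATA box, whose letters adjoin without overlap. No match was found in the windows of ASH1L-AS1 and ZEB1-AS1.

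More antisense transcripts stood lower than higher after YM155. The 2 YM155 arrays lay below both untreated arrays for 50 of 144 members (34.7%), where the share over all 14043 genes tested was 25.6%. They lay above both for 18 members (12.5%), against 19.3% of all genes, and for the other 76 the groups overlapped. At least 1 log2 lower without overlap were 9 members (6.25%, against 1.13% of all genes), and at least 1 log2 higher without overlap was 1 (0.694%, against 0.911%). Of the 9, 6 had a YM155 mean under an intensity of 30 and so met the rule only through their untreated arrays, and 5 of these had both YM155 arrays under 30. TTC28-AS1, ASH1L-AS1 and ZNF436-AS1 were the 3 with both group means at least 30. The shares over all genes carry no such rule on the level, so neither 34.7% nor 6.25% can be read as an excess. The median difference over the members was −0.063 log2, beside −0.016 over all genes. In bulk RNA, fewer cells with a transcript and less of it per cell cannot be told apart.

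No single member passed the test. By limma with Benjamini-Hochberg adjustment over 14043 genes, 0 of 144 members had an adjusted p under 0.05, as had 0% of all genes. The smallest value among the members was 0.164. By limma without adjustment, p was under 0.05 for 30 lower members (20.8%, against 7.51% of all genes) and 6 higher ones (4.17%, against 5.23%). Their adjusted p lay between 0.164 and 0.392. The shares over all genes carry no rule on the level, so the share of 20.8% cannot be read as an excess either. Each difference below is YM155 minus untreated on the log2 scale, with its standard error (SE) from limma and n = 2 arrays per group.

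**Figure D1:**
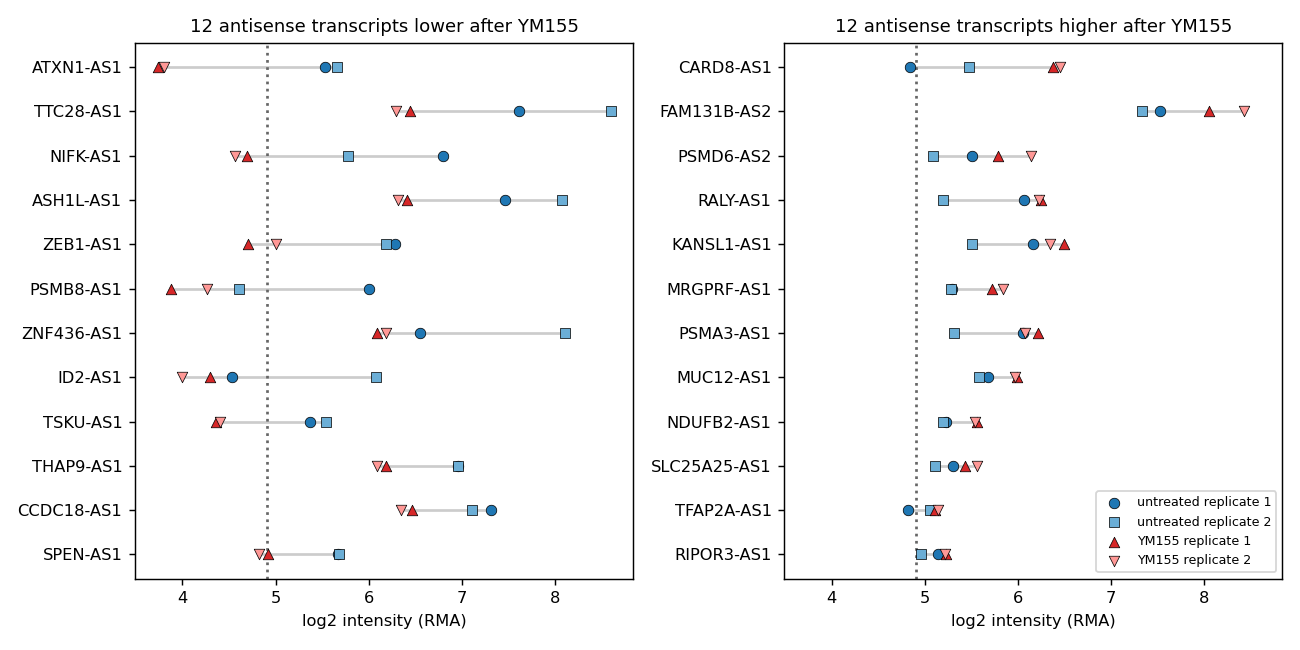
Log2 intensity on each of the 4 arrays for the 12 members with the largest negative (left) and the 12 with the largest positive differences (right) among members whose groups do not overlap; grey lines span the 4 values and the dotted line marks an intensity of 30. Both YM155 arrays lie left of both untreated arrays in the left panel, by 1.82 log2 in mean for ATXN1-AS1, and right of them in the right panel, by 1.26 log2 for CARD8-AS1.

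ATXN1-AS1 lies opposite ATXN1, the gene of the polyglutamine protein ataxin. It read 5.53 and 5.66 log2 in the untreated and 3.73 and 3.81 in the YM155 arrays. The difference was −1.82 ± 0.13 (SE), with a limma adjusted p = 0.164. The arrays of each group lay close together and the groups far apart. Its YM155 values were near the filter limit of 3.32 log2, where signal and background are hard to separate, so the size is not exact. Its other, dimmer probe set read 3.73 and 3.42 untreated and 3.48 and 3.43 after YM155, a difference of −0.12.

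ZEB1-AS1 starts beside ZEB1, a transcriptional repressor of epithelial genes. It read 6.28 and 6.18 log2 untreated and 4.70 and 5.01 after YM155, a difference of −1.38 ± 0.16 (SE; limma adjusted p = 0.164). TSKU-AS1, named for the secreted proteoglycan gene TSKU, read 5.37 and 5.54 untreated and 4.36 and 4.40 after YM155 (−1.08 ± 0.13). In both, as in ATXN1-AS1, the untreated arrays were within 0.2 log2 of each other, so the choice of untreated array hardly moved the difference.

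ASH1L-AS1 lies opposite the start of ASH1L, a histone methyltransferase gene. It read 7.46 and 8.07 log2 untreated and 6.41 and 6.32 after YM155, a difference of −1.40 ± 0.24. TTC28-AS1 overlaps the span of TTC28, a gene of a tetratricopeptide repeat protein, on the opposite strand. It read 7.61 and 8.60 untreated and 6.45 and 6.30 after YM155, a difference of −1.73 ± 0.35. NIFK-AS1, named for a nucleolar partner of the Ki-67 protein, read 6.79 and 5.77 untreated and 4.69 and 4.56 after YM155, a difference of −1.66 ± 0.36. For these 3 the YM155 arrays agreed closely, while untreated replicate 2 differed from replicate 1 by 0.61, 0.98 and −1.02 log2. Together with ATXN1-AS1 and ZEB1-AS1 they were the 5 of 144 members at least 1 log2 below each untreated array. That distance was reached by 0.42% of all genes. Of the 5, ATXN1-AS1, NIFK-AS1 and ZEB1-AS1 met the rule on the level only through their untreated arrays. The 5 can therefore not be read as an excess over that share. No member was at least 1 log2 above each untreated array, where 0.377% of all genes were. Other, dimmer probe sets of TTC28-AS1 (0.27 and 0.35) and NIFK-AS1 (0.42) had positive differences.

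The remaining members of this size rested mainly on 1 untreated array. PSMB8-AS1, opposite an immunoproteasome subunit gene, read 6.00 and 4.60 log2 untreated and 3.87 and 4.27 after YM155. ZNF436-AS1, at a zinc finger gene, read 6.55 and 8.11 untreated and 6.09 and 6.18 after YM155. ID2-AS1, beside the gene of a helix-loop-helix protein without a DNA-binding region, read 4.53 and 6.08 untreated and 4.29 and 3.99 after YM155. Untreated replicate 1 was the high array for PSMB8-AS1, and untreated replicate 2 for ZNF436-AS1 and ID2-AS1. Against the nearer untreated array the differences were −0.54, −0.42 and −0.39, and against the farther one −1.93, −1.98 and −1.94. The other probe set of ID2-AS1, which was dimmer, gave −0.23, and that of PSMB8-AS1, below the filter, gave 0.052.

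THAP9-AS1, CCDC18-AS1 and SPEN-AS1 completed the 12 largest negative differences, with values that hardly varied within a group. THAP9-AS1, at a gene derived from a DNA transposase, read 6.96 and 6.96 log2 untreated and 6.19 and 6.09 after YM155 (−0.82 ± 0.13). SPEN-AS1, at the gene of an RNA-binding corepressor, read 5.67 and 5.68 untreated and 4.92 and 4.82 after YM155 (−0.80 ± 0.13). CCDC18-AS1 read 7.31 and 7.10 untreated and 6.46 and 6.35 after YM155 (−0.80 ± 0.14), and its other probe set gave −0.44. The other probe sets of SPEN-AS1, below the filter, gave −0.20 and 0.16. The 12 had limma adjusted p between 0.164 and 0.459.

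The other 38 members without overlap on the lower side had differences between −0.80 and −0.12. Those given with array values were chosen after the values were seen. Among them was OIP5-AS1, also called cyrano, a conserved cytoplasmic RNA that pairs with the microRNA miR-7. It read 8.90 and 9.26 log2 untreated and 8.32 and 8.27 after YM155 (−0.78 ± 0.17), and its other probe sets gave −0.77 and −0.12. MAPKAPK5-AS1 read 8.61 and 8.65 untreated and 8.08 and 8.14 after YM155 (−0.52 ± 0.12), and its 3 other probe sets were negative too, at −0.54, −0.46 and −0.16. Further members of this kind, with their differences, were ZSCAN16-AS1 (−0.80), ZNF143-AS1 (−0.77), MCM3AP-AS1 (−0.73), MYLK-AS1 (−0.70), NUTM2B-AS1 (−0.68), LIPT2-AS1 (−0.58), DHRS4-AS1 (−0.55), CKMT2-AS1 (−0.53), ARRDC1-AS1 (−0.51) and C10orf95-AS1 (−0.50). Smaller ones were those of ZNF687-AS1, JMJD1C-AS1, ILRUN-AS1, URB1-AS1, BBOX1-AS1, ELOA-AS1, THAP7-AS1, EXOC3-AS1, MELTF-AS1, ZNF433-AS1, AGAP2-AS1, TONSL-AS1, ATP2B1-AS1, MIF-AS1 and SLC9A3-AS1. The rest of the 38 are described with their sense genes below.

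CARD8-AS1, at the gene of an inflammasome protein with a caspase recruitment domain, was the 1 member at least 1 log2 higher. It read 4.84 and 5.48 log2 untreated and 6.37 and 6.45 after YM155, a difference of 1.26 ± 0.24 (SE; limma adjusted p = 0.214). The groups lay apart, by 1.57 log2 from untreated replicate 1 and 0.94 from replicate 2. Its other probe set lay near 2 log2, below the filter, and gave 0.076. FAM131B-AS2 followed, at 7.53 and 7.33 untreated and 8.05 and 8.43 after YM155 (0.81 ± 0.19), but its next probe set gave −0.0037. In the RefSeq table FAM131B-AS2 starts on the same strand as FAM131B.

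Antisense transcripts at proteasome genes went both ways. PSMD6-AS2, at the gene of a regulatory particle subunit, read 5.51 and 5.09 log2 untreated and 5.79 and 6.14 after YM155 (0.67 ± 0.22), and its dimmer probe set gave 1.42. PSMA3-AS1, at the gene of a core particle subunit, read 6.05 and 5.31 untreated and 6.21 and 6.07 after YM155 (0.46 ± 0.27). The groups of PSMA3-AS1 were separated by little more than their edges, and PSMB8-AS1, above, stood lower. The sense genes differed less: PSMD6 by −0.065, PSMA3 by 0.012 and PSMB8 by −0.22.

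Further positive differences without overlap were those of RALY-AS1 (0.61 ± 0.31), at the gene of an RNA-binding protein, KANSL1-AS1 (0.59 ± 0.25), at the gene of a histone acetyltransferase complex subunit, and MRGPRF-AS1 (0.49 ± 0.13). MUC12-AS1 (0.35), NDUFB2-AS1 (0.34), SLC25A25-AS1 (0.28), TFAP2A-AS1 (0.19) and RIPOR3-AS1 (0.17) made up the 12 largest, whose limma adjusted p lay between 0.214 and 0.66. MRGPRF-AS1 had tight groups, at 5.30 and 5.28 log2 untreated and 5.72 and 5.83 after YM155. RALY-AS1 was 0.18 above untreated replicate 1 and 1.04 above replicate 2, and KANSL1-AS1 0.26 and 0.91. CIRBP-AS1, ASMTL-AS1, WAC-AS1, UBXN10-AS1, DSP-AS1 and TENM3-AS1 had positive differences of 0.092 to 0.16 without overlap.

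**Figure D2:**
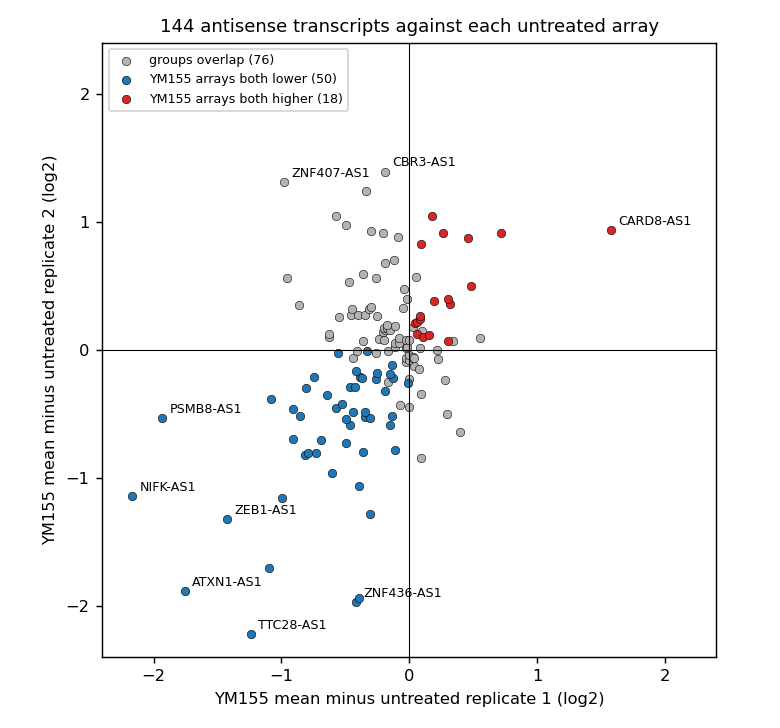
Difference of the YM155 mean from untreated replicate 1 (horizontal) and from untreated replicate 2 (vertical), in log2, for the 144 members; colours show whether the groups overlap. Members in the lower left quadrant (62) were below both untreated arrays in the YM155 mean, and 46 members in the upper left quadrant were below replicate 1 and above replicate 2.

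The count of lower members depended on the untreated array. The YM155 mean lay below untreated replicate 1 for 108 of 144 members, with a median of −0.19, and below replicate 2 for 74, with a median of −0.0083. Over all genes these medians were −0.050 and 0.0072. For 58 members the 2 references gave opposite signs. The untreated arrays were at least 1 log2 apart for 15 members (10.4%, against 4.43% of all genes), and in 12 of these replicate 2 was the lower array, while the YM155 arrays were that far apart for 0 members (0.107% of all genes).

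ZNF407-AS1, which shares a promoter region with the zinc finger gene ZNF407, showed the widest such gap. It read 7.77 and 5.48 log2 untreated and 6.62 and 6.97 after YM155. The YM155 arrays lay between the untreated ones, 0.98 below replicate 1 and 1.31 above replicate 2. The same pattern held for TMEM44-AS1 (7.09 and 5.47 untreated, 6.35 and 6.67 after YM155), ZBTB11-AS1 (5.62 and 4.04, then 5.26 and 5.31), CBR3-AS1 (6.64 and 5.06, then 6.52 and 6.39), DLGAP1-AS6 (6.00 and 4.49, then 5.06 and 5.04) and SP2-AS1 (6.71 and 5.24, then 6.13 and 6.30). In each of these 6 untreated replicate 2 was the lowest of the 4 arrays.

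Leaving out untreated replicate 1 changed the calls. In that fit limma called 26 members at an adjusted p under 0.05, 15 lower and 11 higher, beside 3.75% of all genes lower and 4.34% higher, with adjusted p of the 26 between 0.0405 and 0.0491, and the lone untreated array was assumed to vary like the YM155 arrays. Called lower were TTC28-AS1, ZNF436-AS1, ID2-AS1, ATXN1-AS1, ASH1L-AS1, ZEB1-AS1, ZSCAN16-AS1, TSKU-AS1, NIFK-AS1, PNISR-AS1, OIP5-AS1, THAP9-AS1, SPEN-AS1, ILRUN-AS1 and KMT2E-AS1. Called higher were CBR3-AS1, ZNF407-AS1, ZBTB11-AS1, RALY-AS1, SP2-AS1, CARD8-AS1, SBF2-AS1, KANSL1-AS1, PRKCQ-AS1, ZBED5-AS1 and PSMA3-AS1. Of these 11, CBR3-AS1, ZNF407-AS1, ZBTB11-AS1, SP2-AS1, SBF2-AS1, PRKCQ-AS1 and ZBED5-AS1 lay below untreated replicate 1, so their call rests on replicate 2. Leaving out any other single array gave 0 calls.

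No sense gene tested was at least 1 log2 lower without overlap, a size reached by only 1.13% of all genes. Sense genes near the filter limit, such as TTC28, could hardly show such a fall. A sense gene was tested for 127 of 144 members. For 7 it lay below the filter, and for 10 members it had no probe set of its own here. Of the 127, 23 were lower without overlap (18.1%) and 24 higher (18.9%), with a median of −0.0098, beside 25.6% and 19.3% of all genes. GABPB1, ARRDC3 and ITGB8 were at least 1 log2 higher without overlap (2.36%, against 0.911% of all genes). By limma 0 passed at an adjusted p under 0.05. At an unadjusted p under 0.05 there were 13 higher (10.2%, against 5.23% of all genes) and 7 lower (5.51%, against 7.51%).

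**Figure D3:**
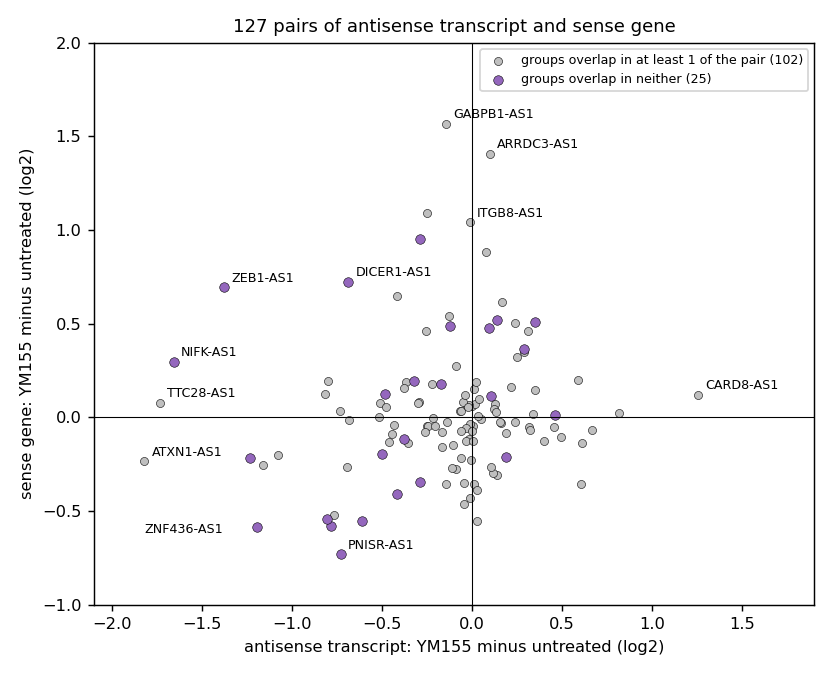
Difference between YM155 and untreated arrays (log2) of 127 antisense transcripts (horizontal) and of their sense genes (vertical); purple points are the 25 pairs in which neither member's groups overlap. The antisense transcripts reach −1.82 while the sense genes stay above −1, and ZEB1-AS1, DICER1-AS1 and NIFK-AS1 lie in the upper left quadrant. Sense genes near the filter limit, such as TTC28, could hardly show a fall of that size.

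Signs matched in 71 pairs and were opposite in 56. Over the 127 pairs, which share the same 4 arrays, Pearson's r was 0.12 and Spearman's rho 0.13, given as a description. In 25 pairs neither partner overlapped between groups: both were lower in 10, both higher in 6, the antisense transcript was lower and the sense gene higher in 8, and the reverse held in 1.

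DICER1-AS1 and ZEB1-AS1 had the largest opposed pairs by the size of both partners. DICER1-AS1, which starts beside the gene of the microRNA-processing enzyme, read 5.67 and 5.23 log2 untreated and 4.91 and 4.61 after YM155, a difference of −0.69 ± 0.21. DICER1 read 6.47 and 6.50 untreated and 7.02 and 7.39 after YM155, a difference of 0.72 ± 0.17, and its next 2 probe sets by signal gave 0.61 and 0.79, while 3 dimmer ones were negative. ZEB1 read 3.52 and 3.81 untreated and 4.19 and 4.53 after YM155 (0.70 ± 0.19), a dim signal close to the filter limit, opposite to the −1.38 of ZEB1-AS1.

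NIFK stood 0.30 ± 0.13 higher opposite to NIFK-AS1, at 10.7 and 10.6 log2 untreated and 11.0 and 11.0 after YM155. ERCC6L2, a gene of a DNA repair helicase family, read 7.24 and 5.86 untreated and 7.38 and 7.62 after YM155 (0.95 ± 0.47), while ERCC6L2-AS1 was lower by a margin of less than 0.01 log2 between its nearest arrays. The differences of the antisense transcript and sense gene were −0.12 and 0.49 for CLN8, a lysosomal storage disease gene, −0.33 and 0.19 for EMC3, −0.48 and 0.13 for PXN, which encodes paxillin, and −0.17 and 0.18 for TBX2. TFAP2A-AS1 (0.19) with TFAP2A (−0.21), a gene of an ectodermal transcription factor, was the 1 pair opposed the other way. No partner in these pairs passed the test.

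Both partners stood lower in 10 pairs, of which 2 are given with array values, chosen after these were seen. PNISR-AS1 read 6.15 and 6.82 log2 untreated and 5.71 and 5.80 after YM155 (−0.73 ± 0.25), and PNISR, which encodes an arginine- and serine-rich nuclear protein, read 9.45 and 9.58 untreated and 8.89 and 8.69 after YM155 (−0.73 ± 0.15). Other probe sets of PNISR ran from −0.39 to 0.81. KMT2E-AS1 read 5.39 and 5.63 untreated and 4.89 and 4.91 after YM155 (−0.61 ± 0.14), and KMT2E, the gene of a SET domain protein, differed by −0.55 ± 0.12. The groups were clearly apart in both partners at PNISR and KMT2E.

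Both partners were lower without overlap also at OIP5 (−0.58), a centromere gene, ZNF436 (−0.59), CCDC18 (−0.54), THUMPD3 (−0.41), DMTF1 (−0.34), PSMB8 (−0.22), C10orf95 (−0.19) and ARHGAP5 (−0.11). The antisense transcripts of THUMPD3, DMTF1 and ARHGAP5 stood at −0.42, −0.29 and −0.38. Both partners were higher without overlap at SLC25A25 (0.36), a mitochondrial carrier gene, MUC12 (0.51), DSP (0.52), the desmoplakin gene, CIRBP (0.48), ASMTL (0.12) and PSMA3 (0.012). At some of these genes the sign depended on the probe set. Other probe sets ran from −0.42 to 0.76 at ARHGAP5, −0.64 to 0.27 at THUMPD3 and −0.49 to 0.47 at CIRBP. They gave −0.029 and 0.051 at CCDC18, −0.049 and −0.10 at ASMTL, and −0.79 and 0.080 at PSMA3. The other probe set of ZNF436 gave −0.71.

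Of the 9 members at least 1 log2 lower, 8 had a sense gene tested, with differences between −0.59 and 0.70. TTC28 differed by 0.079, ATXN1 by −0.23, TSKU by −0.20 and ID2 by −0.26, with overlapping groups. TTC28 read 3.52 and 3.63 log2 untreated and 3.62 and 3.70 after YM155. ID2 read 3.43 and 4.80 untreated and 3.73 and 3.99 after YM155. Both were dim, and TTC28 lay close to the filter limit on every array, where a fall could hardly show. SPEN (0.20), THAP9 (0.13) and, on the higher side, CARD8 (0.12), RALY (−0.14) and KANSL1 (0.20) overlapped between groups as well. Another probe set of SPEN gave 0.45 without overlap, while its dimmer ones gave 0.18 and −0.048.

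The reverse case was chosen after the values were seen. GABPB1, which encodes a subunit of an ETS factor complex, read 7.33 and 6.02 log2 untreated and 8.38 and 8.11 after YM155 (1.57 ± 0.45). ARRDC3, an arrestin domain gene, read 4.29 and 4.80 untreated and 5.79 and 6.11 after YM155 (1.41 ± 0.23). ITGB8, an integrin gene, read 7.53 and 7.20 untreated and 8.11 and 8.70 after YM155 (1.04 ± 0.25). Their antisense transcripts differed by −0.15, 0.10 and −0.012, with overlapping groups.

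GABPB1-AS1 was an exception when its other probe sets were read. The probe set used read 7.94 and 7.13 log2 untreated and 7.42 and 7.35 after YM155. Its 5 others were all lower without overlap, with differences of −1.18, −0.94, −0.90, −0.87 and −0.49, although the ones at −0.90 and −0.49 were dim. The one with the largest difference read 5.97 and 6.08 untreated and 4.79 and 4.90 after YM155. Another probe set of GABPB1 gave 0.13, so both partners differed between probe sets.

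Start sites were compared through the RefSeq promoter table, which held 114 of the members. For 53 pairs the partners lay on opposite strands with starts within 1000 bases of each other, for 55 they lay on opposite strands farther apart, and for 1 they lay on the same strand. For 35 members one or both partners had no entry. Among the 53 close pairs 22 antisense transcripts (41.5%) were lower and 4 higher without overlap, with a median of −0.13, and 6 of the 9 members at least 1 log2 lower belonged here. Among the 55 distant pairs 18 (32.7%) were lower and 7 higher, with a median of −0.077. Among the 6, ZEB1-AS1, PSMB8-AS1, ID2-AS1 and TSKU-AS1 met the rule on the level only through their untreated arrays. The share over all genes was 25.6%, but it carries no such rule, so neither share here can be read as an excess. The difference between the 2 arrangements was not tested.

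**Figure D4:**
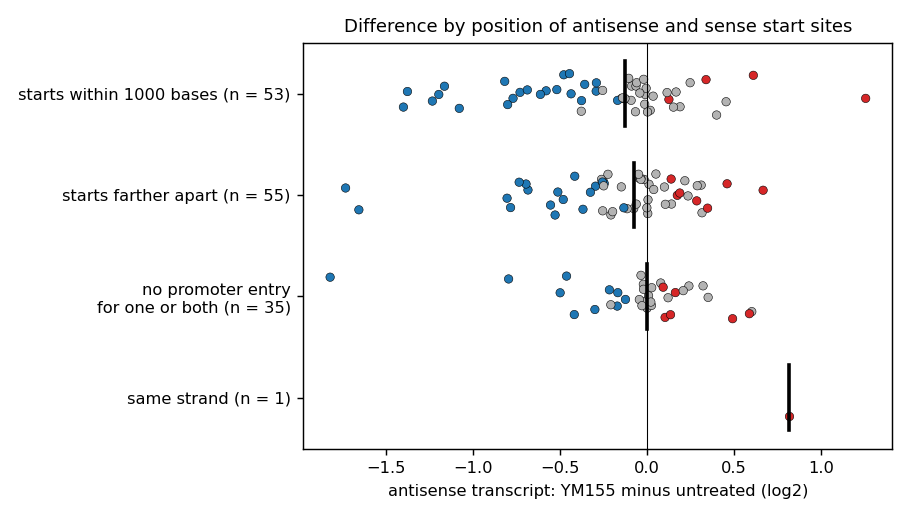
Difference between YM155 and untreated arrays (log2) of each of the 144 antisense transcripts, grouped by the position of its start site relative to that of the sense gene; black bars are medians and colours show members lower (blue), higher (red) or overlapping (grey). The medians are −0.13 for starts within 1000 bases and −0.077 for starts farther apart.

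In the 53 close pairs the antisense start lay upstream of the sense start in 20, the head-to-head form, and inside or downstream in 33. Signs matched in 13 of 19 tested head-to-head pairs and in 15 of 30 of the others. ZNF407-AS1, TSKU-AS1, ID2-AS1 and DICER1-AS1 were head-to-head, and ASH1L-AS1, ZEB1-AS1, ZNF436-AS1, PSMB8-AS1, THAP9-AS1, SPEN-AS1, RALY-AS1 and CARD8-AS1 started on the other side.

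Member promoters were richer in CG dinucleotides than promoters in general, with a median of 25 in 114 windows against 14 in all 27305, and a median G and C content of 65.8% against 58.3%. A GC box was found in 65.8% of them, against 44.6% of all promoters, and a TATA box in 4.39% against 12%. CCAAT boxes (32.5% against 35.7%) and ETS cores (15.8% against 10.7%) were nearer to the general share. The 41 windows of members lower without overlap had a median of 28 CG dinucleotides, a GC box in 75.6% and a CCAAT box in 46.3%. The 12 of higher members had 18, 50% and 16.7%. These are descriptions of letters, and binding of a factor was not measured.

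Other noncoding transcripts are read against the shares over all genes, 25.6% lower and 19.3% higher without overlap and 1.13% at least 1 log2 lower. Of 208 antisense genes tested below the mean of 30, 42 (20.2%) were lower and 39 (18.8%) higher without overlap, and 0 were at least 1 log2 lower. These genes lie nearer the filter limit, where signal and background are hard to separate. The cut at 30 also placed genes with high untreated arrays among the members. The dimmer genes can therefore not be set against the members by size. Of 97 divergent transcripts, with symbols ending in -DT, 41 (42.3%) were lower and 12 (12.4%) higher, and 7 (7.22%) were at least 1 log2 lower. Of 233 intergenic LINC genes 40 (17.2%) were lower and 44 (18.9%) higher. At the other noncoding genes 1 of 5 SNHG, 5 of 16 microRNA host and 3 of 17 intronic or overlapping transcripts were lower. In these 3 classes 0, 4 and 4 were higher. At least 1 log2 lower were 4 LINC genes (1.72%), 0 SNHG, 1 microRNA host (6.25%) and 1 intronic or overlapping transcript (5.88%). All of these shares include only genes above the filter, which kept 32.1% of the dimmer antisense genes and 27.8% of the LINC genes.

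Genes of the machinery that ends and degrades such transcripts were read from 3 lists. Of 21 genes of the nuclear exosome and its adaptors, 16 had negative differences (76.2%, against 52.9% of all genes), with a median of −0.11. This count depended on the untreated array. The YM155 mean lay below untreated replicate 1 for 16 of the 21 (median −0.18) and below replicate 2 for 11 (median −0.056). Over all genes these medians were −0.050 and 0.0072. Without overlap, 6 (28.6%) were lower and 3 (14.3%) higher, beside 25.6% and 19.3% of all genes. ZFC3H1 (−0.59 ± 0.14) and PABPN1 (−0.56 ± 0.19), which direct polyadenylated nuclear RNA to the exosome, EXOSC9 (−0.56 ± 0.14), a core subunit, and ZCCHC8 (−0.50 ± 0.23) of the nuclear exosome targeting complex had the largest. EXOSC9 read 9.14 and 9.09 log2 untreated and 8.67 and 8.44 after YM155, and the groups of all these genes were apart. By limma 0 members of the 3 lists passed at an adjusted p under 0.05. At an unadjusted p under 0.05 the exosome list had 4 lower (19%, against 7.51% of all genes) and 1 higher (4.76%, against 5.23%).

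The 14 Integrator genes, whose complex cleaves nascent RNA, had a median of 0.012, with 3 (21.4%) lower and 1 (7.14%) higher without overlap, beside 25.6% and 19.3% of all genes. INTS5 stood highest (0.87 ± 0.19), INTS9 and INTS7 at 0.56 and 0.38 with overlapping groups, and INTS8 at −0.36. The 20 cleavage, polyadenylation and termination genes had a median of −0.00070, with 3 (15%) lower and 6 (30%) higher without overlap, against the same shares of all genes. CPSF6 (0.88 ± 0.30), a cleavage factor subunit, RBBP6 (0.86 ± 0.23) and SCAF8 (0.63 ± 0.20) stood higher without overlap, and PCF11, a termination factor, read 7.48 and 9.10 untreated and 7.25 and 7.68 after YM155. At an unadjusted p under 0.05 by limma there were 1 higher (7.14%) and 0 lower Integrator genes, and 3 higher (15%) and 0 lower cleavage genes. Over all genes these shares were 5.23% higher and 7.51% lower. PCF11 differed by −0.0081 from untreated replicate 1 and by −1.63 from replicate 2.

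The line's squamous identity was clear: the 7 squamous markers measured, among them KRT5, KRT14 and SFN, read 7.17 to 13.2 log2. Of the markers of other cell types, 1 of 4 leukocyte, 2 of 5 fibroblast, 3 of 5 endothelial and 3 of 5 glandular ones were above the filter. The first was CD3E, at 3.39 to 4.06 log2, and the fibroblast ones were COL1A1 (6.08 to 6.24) and DCN (3.64 to 4.33). Endothelial CLDN5 read 5.09 to 5.26, PECAM1 4.12 to 4.45 and VWF 3.78 to 4.01, and glandular MUC5AC read 4.42 to 4.67, CDX2 3.99 to 4.06 and TFF3 3.42 to 3.76. The others, below the filter, were PTPRC, CD14, LYZ, COL1A2, COL3A1, LUM, CDH5, KDR, TFF1 and MUC2, at or below 3.43 log2 on every array. The summed intensity of the squamous markers was 12500 to 14400 in untreated and 18100 to 18900 in YM155 arrays, and its part in the differences above was not tested. For leukocyte markers the sums were 30.4 to 33.6 and 32.5 to 34.5, for fibroblast 99.2 to 111 and 98.6 to 111, for endothelial 77.9 to 87.2 and 82.9 to 83.2, and for glandular markers 67.0 to 71.1 and 68.0 to 68.5.

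The overlapping members had differences between −0.38 and 0.60, and 40 members in all lay within 0.1 log2 of 0. FGD5-AS1 (0.31), SBF2-AS1 (0.32), DNAAF3-AS1 (0.32), PRKCQ-AS1 (0.35), ZBED5-AS1 (0.40), ZBTB11-AS1 (0.45) and CBR3-AS1 (0.60) had the highest values among them, and IDH1-AS1 (−0.38) the lowest. KRT10-AS1, at a keratin gene, read 9.56 and 9.19 log2 untreated and 9.37 and 9.40 after YM155. PRR34-AS1 read 8.89 and 8.86 untreated and 8.88 and 8.87 after YM155. Just inside the threshold lay LARGE-AS1, ARRDC3-AS1 and LAMTOR5-AS1, with means of 30.4, 30.4 and 30.3, and just outside VASH1-AS1, SHANK2-AS2 and DCST1-AS1, with 29.8, 29.8 and 29.7.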

How the data were processed

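The authors deposited a linear intensity for every probe set on every array. RMA is the method in the submitters' processing notes, and no version or setting of it was seen. RMA already sets the arrays to a common distribution (medians 16.0 to 16.3), and a difference is thus measured against the bulk of genes. Per the labels' protocols, labelled cRNA was made with 200 ng of RNA as input. Log2 was taken; 62 control probe sets were left out. Of the others, 41091 carried 1 gene symbol, 1801 several and 11721 none, from the platform annotation. Probe sets with a mean log2 below the 40th percentile (3.32) were dropped, which kept 32768. For a gene with several, the probe set with the highest linear mean was used, which gave 14043 genes. Groups were compared with limma 3.58.1 in R 4.3.3 (lmFit, eBayes, two-sided), with Benjamini-Hochberg adjustment and a threshold of 0.05; the prior gave 2.69 degrees of freedom beside 2 residual ones. The test was checked on simulated data. The number of arrays limits the precision.

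The sense gene is the symbol without its -AS ending, updated through RefSeq (GRCh38.p14), where 142 of 144 members matched by gene ID. Members and lists were chosen with earlier results of these data known, and 1 antisense gene was set aside by the rule. Named were the 12 largest differences on each side without overlap, 6 overlapping members with the widest untreated gap, their sense genes, opposed pairs, the 3 genes on each side of the threshold and 4 genes per list; other names account for the rest. Alternatives were other filters, probe set choices, normalizations and variance models, a replicate block, each array left out, and other thresholds for members.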

Additional observations from a re-analysis of the deposited data

How the results depend on the processing

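Over all alternatives, no gene was called except without untreated replicate 1: with each array left out, calls ran from 0 to 1136 genes, 0 to 26 members, 0 to 8 sense genes, 0 to 6 cleavage and 0 to 3 Integrator genes. Counts of members without overlap, which separate more easily with 3 arrays, then ran from 61 to 93 lower (42.4% to 64.6%) and 22 to 59 higher. At least 1 log2 away were 7 to 10 lower (4.86% to 6.94%) and 1 to 5 higher. For sense genes the counts were 34 to 62 lower and 32 to 65 higher. Over all genes 34.4% to 47.5% were then lower, and 1.13% to 2.43% at least 1 log2 lower. Shares of all genes higher were not counted in these settings. The members' median ran from −0.19 to −0.0083, that of sense genes from −0.077 to 0.098, and those of the exosome, Integrator and cleavage lists from −0.18 to −0.056, −0.13 to 0.17 and −0.050 to 0.098. Members below untreated replicate 1 numbered 104 to 108, and below replicate 2, 71 to 80. With a gene's probe sets averaged, 5 members were at least 1 log2 lower (3.47%, against 0.855% of all genes) and 2 higher. At a member mean of 20, 65 of 198 (32.8%) were lower and 28 higher without overlap, beside 25.6% and 19.3% of all genes. At a mean of 50, which keeps 83, 33 (39.8%) were lower and 9 higher, beside the same shares of all genes. There 5 (6.02%, against 1.13%) were at least 1 log2 lower, and 65 and 43 lay below untreated replicates 1 and 2. A rule on the level holds at each cut, so these shares of members cannot be read as an excess either.

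Directions reversed for PCF11 (0.20) and PSMA3 (−0.39) with the mean of probe sets, FAM131B-AS2 (−0.0037) and CPSF6 (−0.039) without _s_at and _x_at probe sets, and ITGB8-AS1 (0.039) and TMEM44 (0.019) after a second quantile normalization. With each array left out, values crossed 0 for ZNF407-AS1 (−0.98 to 1.31), TMEM44-AS1 (−0.57 to 1.04), ZBTB11-AS1 (−0.34 to 1.24), CBR3-AS1 (−0.19 to 1.39), SP2-AS1 (−0.50 to 0.98), DLGAP1-AS6 (−0.96 to 0.56), GABPB1-AS1 (−0.55 to 0.26), ITGB8-AS1 (−0.20 to 0.17) and ARRDC3-AS1 (−0.088 to 0.29). They also did for the sense genes CARD8 (−0.36 to 0.60), ID2 (−0.94 to 0.43), MAPKAPK5 (−0.22 to 0.22), MRGPRF (−0.37 to 0.16), THAP9 (−0.14 to 0.39), TMEM44 (−0.29 to 0.25), TSKU (−0.49 to 0.082), ZBTB11 (−0.26 to 0.16), NDUFB2 (−0.079 to 0.12), FAM131B (−0.063 to 0.11) and PSMD6 (−0.15 to 0.024), and for INTS7 (−0.18 to 0.95) and INTS9 (−0.0023 to 1.12). The cause was not tested, beyond fewer arrays. Fitted with the replicate number as a block, 0 genes and 0 members were called by limma (smallest adjusted p = 0.409). Same-numbered arrays did not deviate together (correlation −0.00098 over genes). With so few arrays, this correlation cannot exclude that same-numbered arrays were prepared in parallel. Whether the numbers pair the arrays could therefore not be decided. Values near 3.32 log2 have no certain size.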

Other observations

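Of 144 members, 70 had more than 1 probe set. Their 122 other probe sets included 64 at or above the filter, of which 40 had the same sign as the one used. As examples, chosen after their values were seen, all probe sets of MAPKAPK5-AS1, OIP5-AS1 and GABPB1-AS1 had negative differences, and both of PSMD6-AS2 positive ones. For TTC28-AS1 and NIFK-AS1 the dimmer probe sets had the opposite sign.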
